A study of Mus musculus with 6 samples.

Results

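Clusterin, encoded by Clu, was 1 of the 10616 genes counted in cultured KPC cells, and it was taken as the row of the deposited count table that carries this symbol. KPC cells are a mouse pancreatic ductal adenocarcinoma line. Lentivirus delivered, in the pLKO.1 vector, a hairpin that silences Brca2 (shBrca2, n = 3 libraries) or a non-targeting control hairpin (shControl, n = 3 libraries), and both groups were selected with puromycin. RNA of sorted live cells was bound to oligo(dT) beads, and the 3′ ends of transcripts were sequenced by a variation of MARS-seq, a method that counts reads at transcript ends. The libraries were made from KPC cells, so they describe clusterin RNA in the cancer cell itself, while the study that produced them is about clusterin in cancer-associated fibroblasts. The labels do not say whether the 3 libraries of a group came from separate cultures, and the p-values then measure only the spread between these libraries, which may be technical.

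Clusterin, also called apolipoprotein J, is a glycoprotein that most cells secrete. It acts as an extracellular chaperone that binds misfolded proteins and keeps them soluble, and it is taken up by cells through several lipoprotein receptors. Its gene can be switched on by heat shock factor 1 (HSF1), the main activator of the heat shock response, and by several kinds of tissue injury, among them injury of the exocrine pancreas.

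Totals ranged from 1519340 to 2452467 counts per library and did not differ between the groups by an exact permutation test (two-sided p = 0.8, n = 3 per group, where the smallest possible p is 0.1). Brca2, the target of the hairpin, had 10, 11 and 14 counts under shBrca2 and 33, 52 and 33 under shControl. Its log2 fold change, shBrca2 over shControl, was -1.61 ± 0.44 (SE; adjusted p = 0.029, likelihood ratio test in DESeq2), a call kept in 3 of 6 fits that left out a library.

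In GENCODE vM39 on GRCm39, Clu (ENSMUSG00000022037) spans chromosome 14 from 66190200 to 66218999 on the plus strand, with 58 annotated transcripts. The canonical transcript has 9 exons and 1816 bases. At the other end from the counted 3′ end, the gene overlaps Scara3, which lies on the opposite strand, by 1202 bases, and 1 of the 58 Clu transcripts reaches that overlap. The overlap is 27.6 kb from the 3′ end of Clu, and 50 of the 58 transcripts end within 10 bases of it. Whether counting used strand is not given in the sources used here.

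The study followed Clu in fibroblasts by real-time PCR and by PCR of immunoprecipitated chromatin. It also used RNA-seq made by MARS-seq, and stained clusterin protein in patient tumors. In its RNA-seq, Clu was raised in pancreatic stellate cells, a kind of fibroblast, given medium of shBrca2 organoids, against shControl medium. It was also raised in fibroblasts sorted from shBrca2 tumors, against shControl tumors. The PCR primers are shown because they read other stretches of the gene than the counts described here. All are written 5′ to 3′, with coordinates on GRCm39. Capitals in the reverse real-time primer mark the 2 bases that pair with exon 3 in the spliced transcript, the rest of that primer lying in exon 4.
Clu real-time forward: cgtccagggagtgaagcaca
Clu real-time reverse: cctagtgtcctccagagcatcCT
Clu chromatin forward: cccccgctgggtgct
Clu chromatin reverse: tgactcacgcccagagaatg
The real-time forward primer lies in exon 3 (chr14:66210823-66210842, plus strand) and the reverse primer matches the minus strand at chr14:66212290-66212312. They take in bases 383 to 503 of the canonical transcript, 1313 bases short of its end, and match 55 and 57 of the 58 transcripts. The chromatin primers lie in exon 1, at chr14:66205927-66205941 on the plus strand and chr14:66205996-66206015 on the minus strand, within the first 90 bases of the canonical transcript. The forward one, 15 bases long, has 3 exact matches in the genome, and the other 3 primers have 1 each. The counts described here come from the 3′ end, so they and the PCR products do not sample the same bases of Clu.

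Clu was among the most abundant transcripts of these cells in both groups. It took 1.10% of all counts in shBrca2 replicate 1 (95% Wilson interval 1.09 to 1.12), 0.942% in replicate 2 (0.929 to 0.955) and 0.823% in replicate 3 (0.812 to 0.835). In the shControl libraries it took 1.14% (1.13 to 1.16), 1.07% (1.06 to 1.09) and 0.999% (0.985 to 1.01). The groups overlapped, since shBrca2 replicate 1 lay above shControl replicates 2 and 3. These intervals cover counting error only. In bulk RNA, fewer cells expressing a gene and less of its RNA per cell cannot be told apart.

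By count, Clu ranked 2 in 5 of 6 libraries and 3 in the remaining one, shBrca2 replicate 2, where Fth1 stood above it. S100a6, a calcium-binding protein of the S100 family, ranked 1 in every library, and the Clu count was 36.3% to 62.5% of the S100a6 count. After S100a6 at a mean share of 2.03% and Clu at 1.01% came Fth1, the ferritin heavy chain, at 0.885%, the ribosomal stalk protein Rplp1 at 0.780% and Actb, cytoplasmic actin, at 0.677%. Rplp0, Rack1, Wfdc2, Rps2 and Tff1 completed the first 10, at 0.655%, 0.516%, 0.505%, 0.491% and 0.457%. Clu, Wfdc2 and Tff1 encode secreted proteins, whereas Rplp0, Rack1 and Rps2 belong to the ribosome. Near-identical pseudogenes exist for ferritin, actin and ribosomal genes, so their counts are less certain than that of Clu. None of these 10 genes was called as different between the groups. A gene was called where its adjusted p was under 0.1, its log2 fold change beyond 0.5 in either direction and its mean normalized count over 5, and 1.27% of the 9997 genes with an adjusted p (127 genes) met it. Divided by the length of the longest annotated transcript (2167 bases for Clu), the share placed Clu at rank 6 of 10342 genes, and between 6 and 9 in single libraries, although 3′ end counts do not scale with length.

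**Figure D1:**
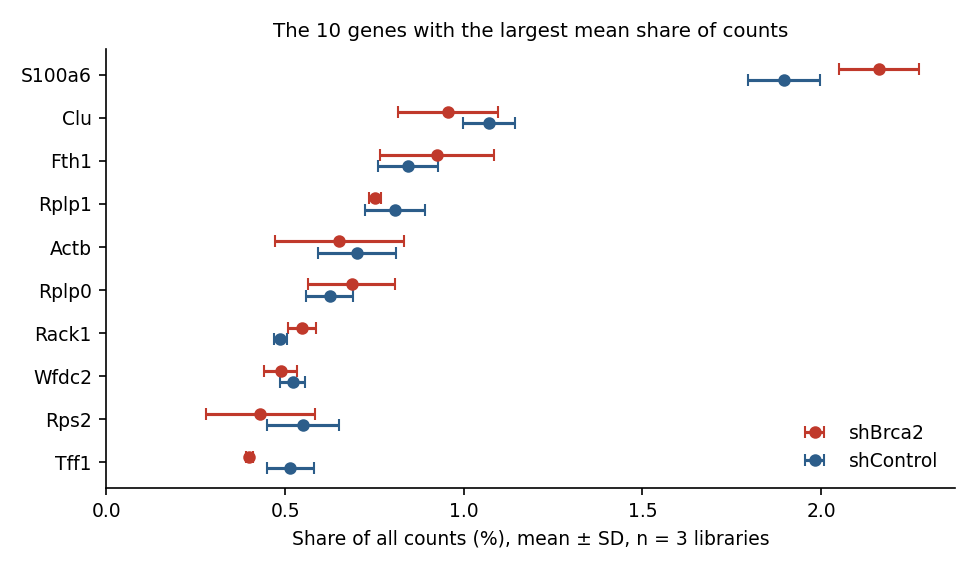
Share of all counts, in percent, for the 10 genes with the largest mean share. Points are group means and bars SD over 3 libraries; Clu, at 0.956% in shBrca2 and 1.07% in shControl, has error bars that overlap between the groups.

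Knockdown of Brca2 was not accompanied by a detectable difference in Clu RNA. Counts divided by size factors (normalized counts) were 22796, 19534 and 16896 under shBrca2, and 24243, 22072 and 20176 under shControl. The lowest value was that of shBrca2 replicate 3, and the ranges overlapped. Group means were 19742 ± 2956 and 22163 ± 2035 (SD, n = 3). The log2 fold change was -0.17 ± 0.15 (SE), with a 95% interval from -0.46 to 0.12 (adjusted p = 0.870, likelihood ratio test in DESeq2). As a ratio this is 0.891, with an interval from 0.728 to 1.09, so the data leave room for a difference of either sign within those bounds. The shares, which need no size factor, averaged 0.956% ± 0.140 and 1.07% ± 0.0727 (SD, n = 3), a difference of -0.116 percentage points (exact permutation test, two-sided p = 0.3). Leaving out shBrca2 replicate 3 took the log2 fold change to -0.07 and leaving out shBrca2 replicate 1 took it to -0.28 (adjusted p = 0.993 and 0.725). Without shControl replicate 1 it was -0.10 (adjusted p = 0.931).

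The spread of Clu between libraries of a group was larger than counting error. If each count were an independent molecule, counting alone would give each library a relative error of 0.616% to 0.773%, while the normalized counts of Clu varied by 14.97% of the mean in shBrca2 and by 9.18% in shControl. The chi-square of the 3 Clu counts against equal shares was 383 per degree of freedom in shBrca2 and 102 in shControl. Among the 100 most abundant genes, a group set after the values were seen, the median SE of the log2 fold change was 0.152, and 43 genes had a smaller SE than Clu. In this group 45 genes had a larger absolute log2 fold change than Clu. Of the 100 genes 3 were called, where 1.27% of all tested genes were called. These 3 are Igfbp4, Itm2b and Sod1, with absolute log2 fold changes from 0.56 to 0.59.

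**Figure D2:**
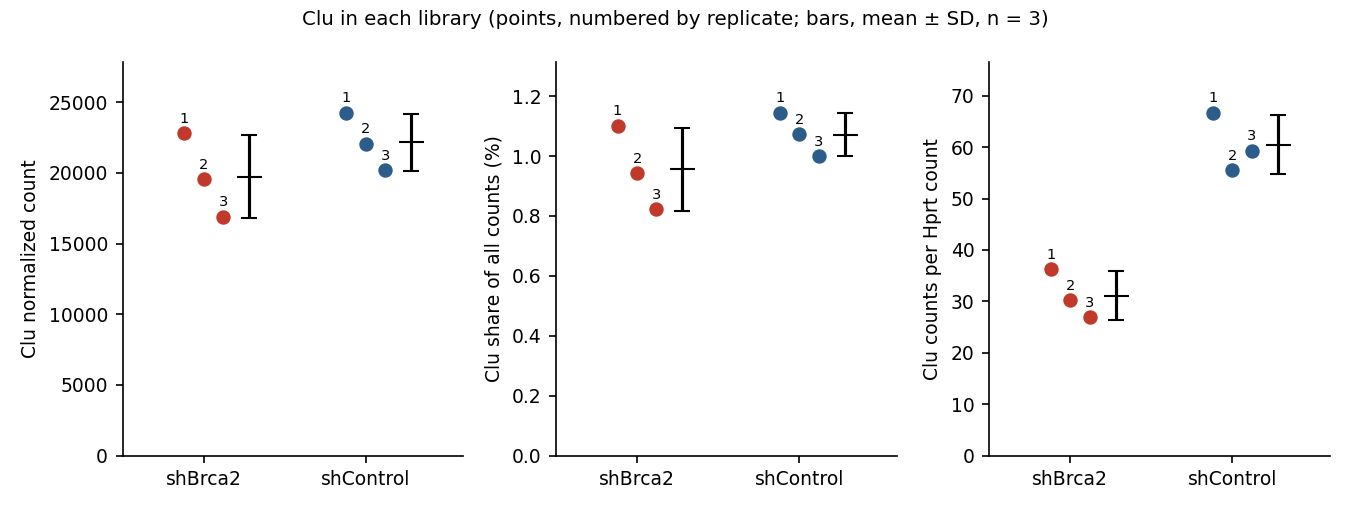
Clu in each library as normalized count, as percent of all counts and as counts per Hprt count. Points are libraries, numbered by replicate, and bars give mean ± SD (n = 3); the groups overlap in the first and second panels and separate in the third, at 27.0 to 36.2 against 55.5 to 66.6.

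The choice of a reference gene changed the size of the Clu difference. Hprt, a purine salvage enzyme, was the gene to which the study scaled its PCR values. The study's Clu PCR was done in stellate cells, whose Hprt RNA these libraries do not show. In these KPC libraries, normalized counts of Hprt were 629, 647 and 627 under shBrca2 and 364, 397 and 340 under shControl, with no overlap. Hprt was called higher in shBrca2, with a log2 fold change of 0.79 ± 0.15 (SE; adjusted p = 0.000115, DESeq2), and it was called in all 12 fits tried. Expressed per Hprt count, Clu came to 36.2, 30.2 and 27.0 in shBrca2 and to 66.6, 55.5 and 59.3 in shControl. These ratios did not overlap, and their means were 31.1 ± 4.70 and 60.5 ± 5.65 (SD, n = 3). On the log2 scale the ratio differed by -0.96 (exact permutation test, two-sided p = 0.1, the smallest p that 3 against 3 libraries allow). The corresponding log2 fold changes on the scale of all genes were -0.17 for Clu and 0.79 for Hprt.

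None of the other 10 reference genes was called, where 1.27% of all tested genes were called. With each of them as the scale in turn, a set of alternatives added after the values were seen, the log2 difference of Clu ran from -0.94 with Gapdh to 0.02 with Gusb, with a median of -0.23. It was negative with 9 of the 10. Scaled to Actb, it was -0.04, to B2m, part of class I MHC, -0.05, and to Tbp, the TATA-binding protein, -0.24. Only with Sdha, a subunit of succinate dehydrogenase, did the groups not overlap (difference -0.69, exact permutation p = 0.1). Gapdh had 603 normalized counts in shBrca2 replicate 3 and between 58.6 and 99.0 in the 5 other libraries, and many near-identical Gapdh pseudogenes exist.

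**Figure D3:**
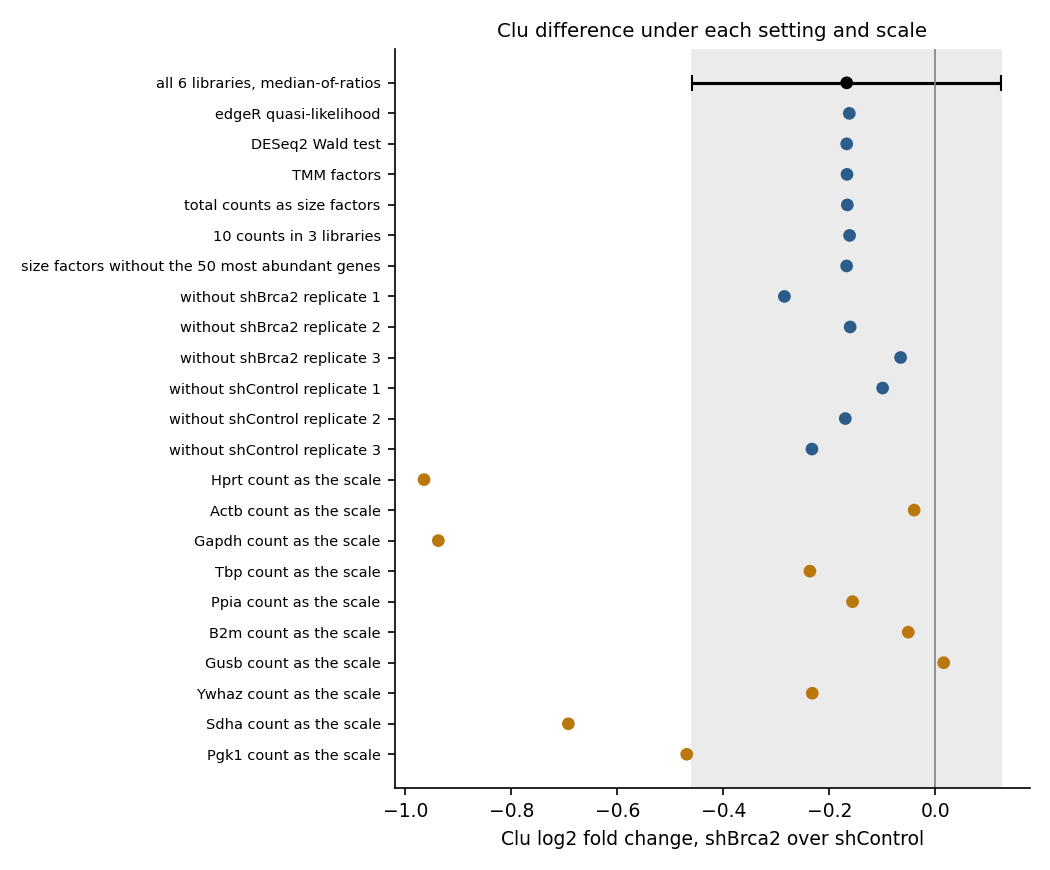
Log2 fold change of Clu, shBrca2 over shControl, under each setting. The black point with its bar and the grey band give the value from all 6 libraries, -0.17, with its 95% interval from -0.46 to 0.12; blue points are other fits and omitted libraries, and ochre points use a single reference gene as scale, 1 scale inside the band not being drawn, from -0.96 with Hprt to 0.02 with Gusb.

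None of the counted genes that encode clusterin receptors was called, where 1.27% of all tested genes were called. With so few genes, the absence of calls is near that share. Of 9 listed receptors and surface partners, 6 were in the count table, among them Lrp1, Lrp8, Vldlr, Sort1 and Plxna4, and Lrp2, Sorl1 and Trem2 were not analysed here. Lrp1, an endocytic receptor of many ligands, had 93.5 ± 10.5 in shBrca2 and 96.7 ± 4.03 in shControl (normalized counts, mean ± SD). Vldlr, a lipoprotein receptor, had 13.6, 9.45 and 13.1 in shBrca2 against 7.07, 5.03 and 0.989 in shControl. These values rest on few raw counts, 10, 10 and 15 in shBrca2 against 7, 6 and 1 in shControl. Vldlr was not called (log2 fold change 1.46 ± 0.75, SE; adjusted p = 0.583, DESeq2). The list had a median log2 fold change of 0.12, beside -0.00 over all 10616 genes.

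Other apolipoproteins were close to the limit of detection. Of 11 listed, 4 were counted (Apoe, Apoa1, Apoa2 and Apob), and together they made up at most 0.00170% of counts in any library, against at least 0.823% for Clu. Apoe, the main apolipoprotein of lipoprotein exchange between tissue cells, averaged 10.6 ± 2.70 in shBrca2 and 9.20 ± 3.32 in shControl. None was called. For the short lists of this paragraph, the absence of calls is near the 1.27% of all tested genes that were called. Of 11 other genes listed as chaperones outside the cell, 4 were counted and 0 were called. Sparc and Apoe encode secreted proteins, while Tln1 and Serpinh1 encode proteins that act in the cell. The study did find SERPINH1 raised in shBrca2 organoid medium. The counts of this list therefore describe single genes and not a class. Tln1, a linker of integrins to actin and the most abundant of these, had 552 ± 62.4 and 680 ± 26 normalized counts, and Sparc, a collagen-binding matrix protein, 130 ± 16.9 and 142 ± 62.2. All 8 listed intracellular partners of clusterin were counted and 0 were called, with a median of 0.04. Among them the apoptosis regulators Bax (log2 fold change -0.02 ± 0.18, SE) and Bcl2l1 (-0.24 ± 0.16) and the Ku70 subunit of DNA end joining, Xrcc6 (0.09 ± 0.26), had differences within 2 SE of 0.

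No counted heat shock gene was called, neither Hsf1 nor the listed chaperones, where 1.27% of all tested genes were called. Hsf1 itself had 218, 240 and 142 normalized counts in shBrca2 and 301, 258 and 239 in shControl, with shBrca2 replicate 2 just above shControl replicate 3. Its log2 fold change was -0.42 ± 0.22 (SE; adjusted p = 0.589, DESeq2). This is RNA, whereas the study read HSF1 activation from nuclear protein in tumor stroma. Of 16 transcription factors reported to act on the Clu promoter, 15 were counted and 0 were called, with a median of -0.13 and a smallest adjusted p of 0.391, that of Jun, a subunit of AP-1 (39.4 ± 8.28 against 65.6 ± 11.6). Ybx1, a cold shock domain protein, had 2221 ± 138 and 2244 ± 109 normalized counts, the most of this list. Of 24 heat shock chaperones, 23 were counted and 0 were called, with a median of -0.01. Log2 fold changes were positive for 11 and negative for 12, among them Hspb1 at 0.51 ± 0.22 and Hsp90aa1 at -0.46 ± 0.31 (SE). Hspa8, the constitutive HSP70, had 4839 ± 37.3 and 4818 ± 753, Hsp90ab1, the constitutive HSP90, 3321 ± 1008 and 3707 ± 325, and Hspd1, the mitochondrial chaperonin, 1603 ± 285 and 1561 ± 158. The smallest adjusted p was 0.292, for the HSP90 co-chaperone Fkbp4 (1267 ± 94.8 against 1622 ± 93.7). Summed over the 23 genes, heat shock chaperones took 0.733% to 0.828% of counts, and Clu alone took more than this sum in each of the 6 libraries. These are counts per gene and not levels per length.

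Genes of the secretory pathway, through which clusterin is folded and cleaved, were not called either, where 1.27% of all tested genes were called. With so few genes, the absence of calls is near that share. All 17 listed genes were counted, Ero1l and Ero1a being symbols of the same gene, with a median log2 fold change of 0.10 and a smallest adjusted p of 0.554. Calr, a lectin chaperone of the endoplasmic reticulum, had 3393 ± 681 in shBrca2 and 3183 ± 846 in shControl, and the protein disulphide isomerase P4hb had 2210 ± 240 and 1867 ± 188. Furin, a proprotein convertase, had 166 ± 21.9 and 206 ± 28.6. Of 20 targets of p53 and DNA damage, 18 were counted and 0 were called, again near the share over all tested genes. Their median was -0.11. Gadd45b, a growth arrest gene, came nearest, at 100.1 ± 8.73 against 159 ± 12.9 (log2 fold change -0.67 ± 0.21, SE; adjusted p = 0.119, DESeq2).

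Of 13 counted genes of damaged and regenerating epithelium, a state in which Clu marks cells of the injured intestine, 2 were called. Both were higher in shBrca2, where 0.77% of all tested genes were called higher. The list was chosen with earlier results of these data known, so these calls are no independent evidence of that state. Krt7, a duct keratin, had 383, 351 and 282 normalized counts in shBrca2 and 121, 156 and 161 in shControl. It rose by 1.21 ± 0.20 on the log2 scale (SE; adjusted p = 2.07e-06, DESeq2). Sox9, a transcription factor of pancreatic ducts and progenitors, had 54.5, 69.0 and 92.2 against 25.3, 26.8 and 42.5. The log2 fold change of Sox9 was 1.20 ± 0.34 (SE; adjusted p = 0.0391), and the call was lost in 4 of the 6 fits that left out a library, those without shBrca2 replicate 2 or 3 and without shControl replicate 1 or 2. The values of both genes separated the groups, which adds no evidence to calls made on the same values. The other 11 genes of the list were not called, among them Spp1 (osteopontin, 5370 ± 108 against 6775 ± 1631), Krt19 (4138 ± 509 against 4315 ± 370) and Msln (mesothelin, 1668 ± 257 against 2214 ± 42.1). Anxa1, Areg, Ereg, Ly6a, F3, Il33, Cxadr and Basp1 were not called either. The list had a median of 0.25, with 8 genes positive and 5 negative.

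A list of proteins was taken from those the study named as raised in medium of KPC organoids carrying shBrca2, relative to shControl. Clusterin itself was among the raised proteins and is left out of the list. The study measured protein in organoid medium, whereas the counts here are RNA of cultured KPC cells, so the measures are unlike. Of the genes on this list 19 were counted, and Reg3g, Reg3b, Gc, F8, Fga, Fgb and Fgg were not analysed here. Of those counted, 2 were called, both lower in shBrca2, where 0.5% of all tested genes were called lower. Fn1, fibronectin, had 158, 178 and 178 normalized counts in shBrca2 and 356, 292 and 304 in shControl. The log2 fold change of Fn1 was -0.89 ± 0.18 (SE; adjusted p = 0.000524, DESeq2). Hspg2, the basement membrane proteoglycan perlecan, had 55.8, 65.2 and 42.6 against 83.9, 148 and 127. The log2 fold change of Hspg2 was -1.14 ± 0.28 (SE; adjusted p = 0.0136), a call lost without shBrca2 replicate 1, without shBrca2 replicate 3 or without shControl replicate 2. Neither gene overlapped between the groups, but both were picked because they were called on the same values. The lack of overlap is therefore no further evidence. Igfbp7, a binding protein of insulin-like growth factors, was not called, and had 1622 ± 96.2 against 2208 ± 172 and an adjusted p of 0.0827, with a log2 fold change of -0.45 ± 0.14 (SE) that was smaller than required. Vim, vimentin, had the most counts of the list (8361 ± 837 against 9155 ± 1040). The list had a median of -0.12.

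A further list came from pancreatic stellate cells, a kind of fibroblast, and holds genes named as raised together with Clu when those cells were given medium of shBrca2 organoids. It has 30 genes, chosen in other cells than these. In the KPC libraries 15 of its genes were counted and 14 had an adjusted p. Of these 1 was called higher and 0 lower, where 0.77% of all tested genes were called higher and 0.5% lower, and the median log2 fold change was -0.03. The called gene was Dhrs3, a retinaldehyde reductase, with 53.1, 60.5 and 54.8 normalized counts in shBrca2 against 26.3, 14.3 and 17.8 in shControl. Dhrs3 rose by 1.54 ± 0.37 on the log2 scale (SE; adjusted p = 0.00607, DESeq2), and the call was lost only without shControl replicate 2 among the 12 fits. Lsm3, an RNA splicing factor with the most counts of the list, had 334 ± 38.8 against 351 ± 60.4.

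**Figure D4:**
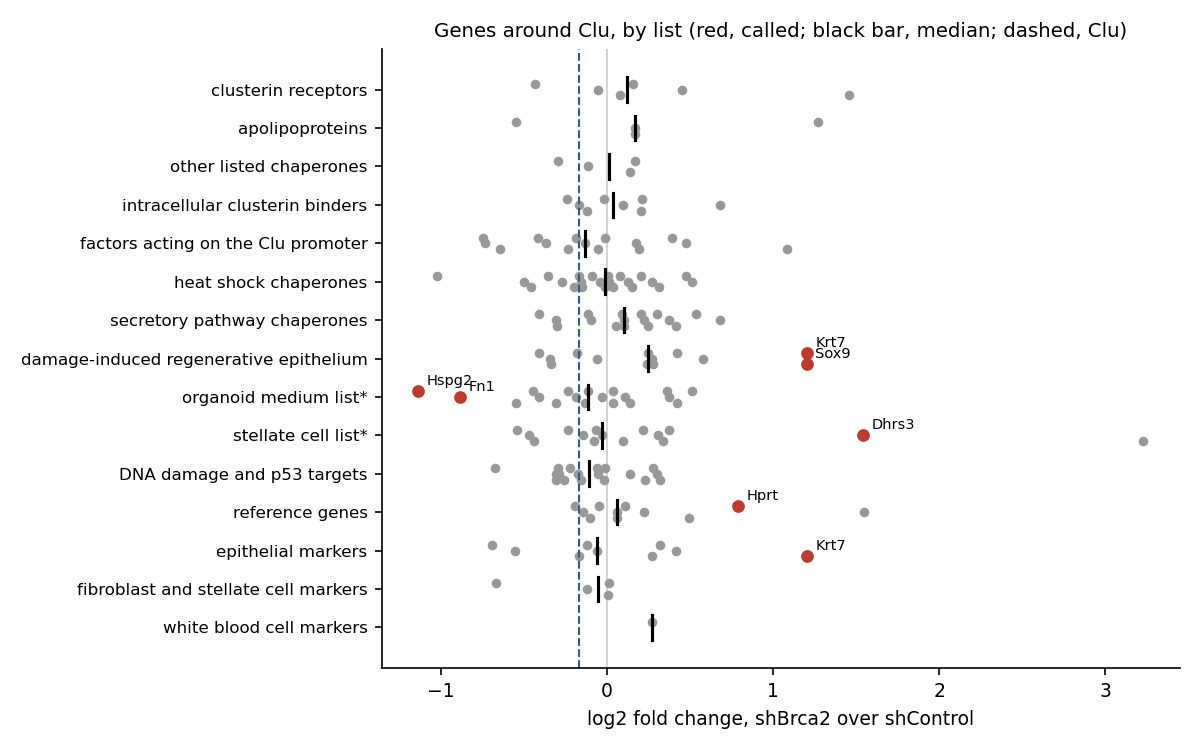
Log2 fold changes, shBrca2 over shControl, of the counted genes of each list; an asterisk marks lists named by the study. Each point is a gene, red points were called, black bars are list medians and the dashed line is Clu at -0.17; the called genes are Krt7, Sox9, Dhrs3 and Hprt to the right and Fn1 and Hspg2 to the left, and Krt7 stands in 2 lists.

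Defining markers of the cell types in which the study described clusterin were at or near the floor of these libraries. Of 15 fibroblast and stellate cell markers, 4 were counted (Col1a2, Thy1, Postn and Cxcl12), with normalized means of at most 24.1, and their sum made up 0.00220% to 0.00228% of counts in shBrca2 and 0.00208% to 0.00334% in shControl. Col1a1, Col3a1, Dcn, Pdgfra, Pdgfrb, Pdpn and Acta2 were not analysed here. Of 9 white blood cell markers 1 was counted (Cd68, 17.2 ± 4.39 against 14.1 ± 2.85), and of 6 endothelial markers 0 were. Epithelial keratins were abundant, with Krt18 at 8800 ± 556 and 9568 ± 380, Krt8 at 2742 ± 312 and 3077 ± 595, and Cdh1, E-cadherin, at 1012 ± 180 and 811 ± 175. The epithelial adhesion molecule Epcam was low, at 5.23 ± 2.26 and 7.80 ± 1.66, and Cldn7, a tight junction protein, averaged 4.10 and 6.62. Summed, the 9 counted epithelial markers took 0.815% to 0.847% of counts in shBrca2 and 0.848% to 0.927% in shControl.

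Neighbours of Clu on chromosome 14 were far less abundant than Clu. In RefSeq on GRCm38.p6, Clu lies at chr14:65968483-65981548. With start meaning the lower coordinate on either strand, 9 other genes starting within 500 kb of the start of Clu were counted. None was called, where 1.27% of all tested genes were called. The nearest, Scara3, a scavenger receptor on the opposite strand, has its lower coordinate 49.1 kb from that of Clu and its upper one at 65953978. Scara3 had 345 ± 42.7 normalized counts in shBrca2 and 344 ± 30.6 in shControl. Trim35, a ubiquitin ligase, had the highest mean of the 9, at 433, and Clu exceeded it 48.4 times. The others were Elp3, Pbk, Esco2, Ccdc25, Ephx2, Ptk2b and 1700001G11Rik, with log2 fold changes from -0.30 for Ptk2b to 0.58 for 1700001G11Rik, the rarest of them at a mean of 4.37.

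The 5 genes whose levels followed that of Clu most closely over the 6 libraries were M6pr (Pearson r = 0.989), Rpusd3 (0.984), Mapk3 (0.981), Wbp2 (0.976) and Shkbp1 (0.966), on log2 of the normalized count plus 1 and among 5680 genes with a mean of at least 50. M6pr encodes the cation-dependent mannose 6-phosphate receptor, which sorts lysosomal enzymes, and Mapk3 encodes the kinase ERK1. M6pr had 488, 444 and 416 normalized counts in shBrca2 and 494, 484 and 453 in shControl, and Mapk3 had 426, 337 and 282 against 427, 390 and 334. Like Clu, both were lowest in shBrca2 replicate 3 and highest in shControl replicate 1. Both genes were picked by their r with Clu in these libraries, so this is no separate observation. None of the 5 was called, where 1.27% of all tested genes were called. These correlations rest on 6 libraries that share their size factors, and Clu itself spans 0.52 on the log2 scale. Over all 5680 genes the median r was 0.0586, with 61 genes (1.07%) above 0.9 and 58 (1.02%) below -0.9.

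**Figure D5:**
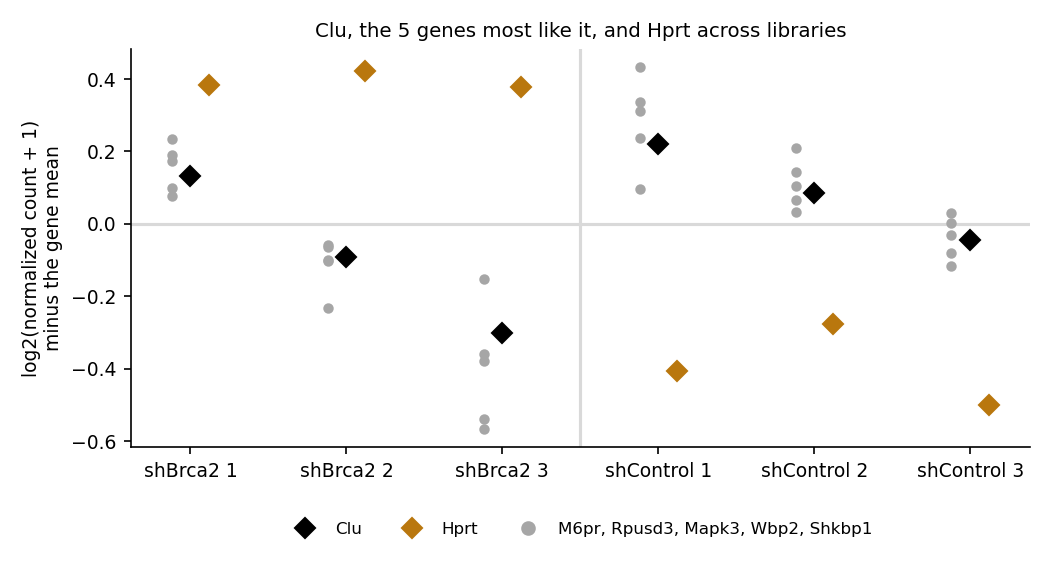
Log2(normalized count + 1) minus each gene's own mean, in each of the 6 libraries. Clu (black) and the 5 genes with the highest r (grey), picked by that r in these same libraries, are lowest in shBrca2 replicate 3. Hprt (ochre) is above its mean in all 3 shBrca2 libraries and below it in all 3 shControl libraries.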

How the data were processed

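The authors deposited 1 table of raw read counts per gene symbol, with 1 column for each of 6 libraries, neither normalized nor pooled. Tools named in the submitters' processing notes include bcl2fastq, cutadapt, STAR 2.4.2a, HTSeq and DESeq2, with build mm10. Whether molecular identifiers or strand were used in counting is not given in the sources used here. Columns were matched to libraries by title and groups were taken from the labels. The replicate numbers used here follow the order of the titles within each group and pair no libraries. All genes were fitted together in DESeq2 1.42.0 (R 4.3.3), scaled by the median of ratios, and a model with group was compared with one without it by likelihood ratio, with Benjamini-Hochberg adjustment. Calls required, as in the study's methods, an adjusted p below 0.1, a base mean above 5 and a log2 fold change beyond 0.5 in either direction. Fold changes were not shrunken. Adjusted p-values were given to 9997 genes, those above an independent filter at a base mean of 4.64. Shares were compared by exact permutation over libraries, and their intervals are Wilson intervals at 95%. Alternatives were edgeR 4.0.16 (quasi-likelihood), the Wald test, TMM factors or total counts, a filter of 10 counts in 3 libraries, omission of each library, and other scales for Clu.

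Clu, the gene lists and the tests were chosen with earlier results of these data known. Genes named were Clu, Brca2, Hprt, the 10 with the largest share, the 5 most like Clu, those starting within 500 kb, and list members that were called, were named by the study or were among the 3 most abundant of a list. Further list members, including those with the smallest adjusted p of a list, were chosen after their values were seen. Some genes of the lists are not reported here by name. The fits were tested on simulated counts. Transcripts were taken from GENCODE vM39 on GRCm39, and neighbours from RefSeq on GRCm38.p6, the build of the counts.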

Additional observations from a re-analysis of the deposited data

How the results depend on the processing

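No paired analysis was possible because the labels give no replicate numbers shared by the groups. The log2 fold change of Clu was not called and stayed negative in all 12 alternative fits, from -0.28 to -0.07 (adjusted p from 0.623 to 0.993, edgeR or DESeq2), the extremes being fits without a shBrca2 library. It turned positive only with Gusb as the scale (0.016). The difference in share was -0.134 without ribosomal protein genes and -0.144 without the other 49 most abundant genes, and -0.189 to -0.0502 percentage points with each library omitted. Called genes numbered 127 with all libraries, 121 with edgeR (101 shared), 94 at an adjusted p under 0.05, and 47 to 140 with each library omitted, with 81 without shBrca2 replicate 1, 47 without shBrca2 replicate 3 and 55 without shControl replicate 2. Of the list genes, reference genes and cell type markers aside, 5 were called with all libraries, 6 or 7 in other fits, and 2 to 6 with each library omitted, with 3 without shBrca2 replicate 3 and 2 without shControl replicate 2. The cause of these changes was not tested, beyond the smaller number of libraries. Of the 5 genes most like Clu, only 1 stayed among the first 5 by Spearman's rho, although the 5 had rho of 0.943 to 1. On deviations from group means 3 stayed, and 3 stayed among genes with a mean of at least 200. With 3 libraries a group, the 95% interval of the log2 difference in Clu ran from -0.46 to 0.12.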
